A study of Homo sapiens with 6 samples.

Results

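Cells keep their own repeats silent with a small set of chromatin enzymes, and 10 of the genes that encode them were followed here in PC9 cells with and without RBM10 knockdown. The genes were taken by symbol from the deposited gene table: the DNA methyltransferases DNMT1, DNMT3A and DNMT3B, the heterochromatin factors TRIM28 and SETDB1, the HUSH-linked genes TASOR, MPHOSPH8 and MORC2, the Polycomb enzyme EZH2 and the histone demethylase KDM1A. All 10 are among the 16306 genes of the table, and all 10 passed the filter on low counts that left 12620 genes to test. The question asked of them was whether silencers of repeats are lower where interferon-stimulated genes are higher.

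Endogenous retroviruses and LINE elements are kept off by methylation of CpG dinucleotides in their DNA and by methylation of histone H3 at lysine 9 or lysine 27. TRIM28 is recruited to such elements by KRAB zinc finger proteins and brings in the H3K9 methyltransferase SETDB1, while the HUSH complex acts on long, intron-poor transcribed elements. Loss of these factors in other cells is known for letting repeats be transcribed, and double-stranded RNA from repeats can be bound by the sensors MDA5 and RIG-I, which start an interferon response. The table holds genes, so transcripts of the repeats themselves were not analysed here.

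PC9 is an established human lung adenocarcinoma cell line with an EGFR exon 19 deletion. RNA-seq libraries came from PC9 carrying a control shRNA (sh-NC, n = 3) and from PC9 carrying an shRNA against RBM10 (shRBM10, n = 3), an RNA-binding protein that regulates splicing. The sources used here do not say which RBM10 shRNA each library carries or whether the 3 libraries of a group are separate cultures, so p-values measure only the spread between these libraries, which may be technical. The shRBM10 libraries are called A, B and C after their columns. Only A matches a sample title, and B and C carry no replicate number.

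RBM10 itself was lower in all 3 shRBM10 libraries (532, 510 and 666 normalized counts) than in sh-NC (1418, 1172 and 1455), with a log2 fold change of -1.24 ± 0.23 (SE) and an adjusted p of 0.10 by edgeR's quasi-likelihood test. Normalized counts here are estimated counts scaled by TMM library factors. Library totals lay between 16606390 and 18864243 counts. Control library sh-NC 2 stood apart: its decile of longest genes lay 1.00 log2 units below the mean over libraries and its decile of shortest genes 0.71 above. In libraries A and B the decile of genes with the lowest GC content lay 0.82 and 0.51 log2 units above that mean, while in C it lay 0.21 below, close to sh-NC 1 and 3 (0.19 and 0.22 below). All 7 epithelial markers were abundant, with a summed level of 558200 to 1012324 normalized counts in sh-NC and 451165 to 656316 in shRBM10. The label protocol speaks of retinas, yet of 8 retinal genes 3 are not listed in the table, 4 stood at 3 counts or fewer and only NRL was tested, and the sum of the list was 84.9 to 157 in sh-NC and 64.5 to 78.0 in shRBM10. Of 10 immune, stromal and endothelial markers, 5 were tested. Among these the endothelial genes CDH5 and VWF were lower (log2 fold changes of -1.38 and -1.31, adjusted p of 0.144 and 0.155), PECAM1 and COL1A2 were near 0, and the sum of the list was 2175 to 3472 in sh-NC and 1990 to 2582 in shRBM10. Their part in the results was not tested. In bulk RNA, fewer cells of a kind and less RNA per cell cannot be told apart.

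No silencer was called at an adjusted p under 0.05 with a change of more than 2-fold (0 of 10, edgeR), where 0.0158% of all genes tested were called. At an unadjusted p under 0.05 there were 3, with TASOR and MPHOSPH8 higher and TRIM28 lower, against 24.3% of all genes (15.7% higher and 8.6% lower). The DESeq2 test called 0 of the 10 and 4.64% of all genes. The median log2 fold change of the 10 was 0.14, beside 0.03 over all genes tested. Single members lay on both sides of 0. In normalized counts, TRIM28 was the only silencer whose groups did not overlap. Over all genes, 30.1% did not overlap (16.2% lower and 13.8% higher).

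**Figure D1:**
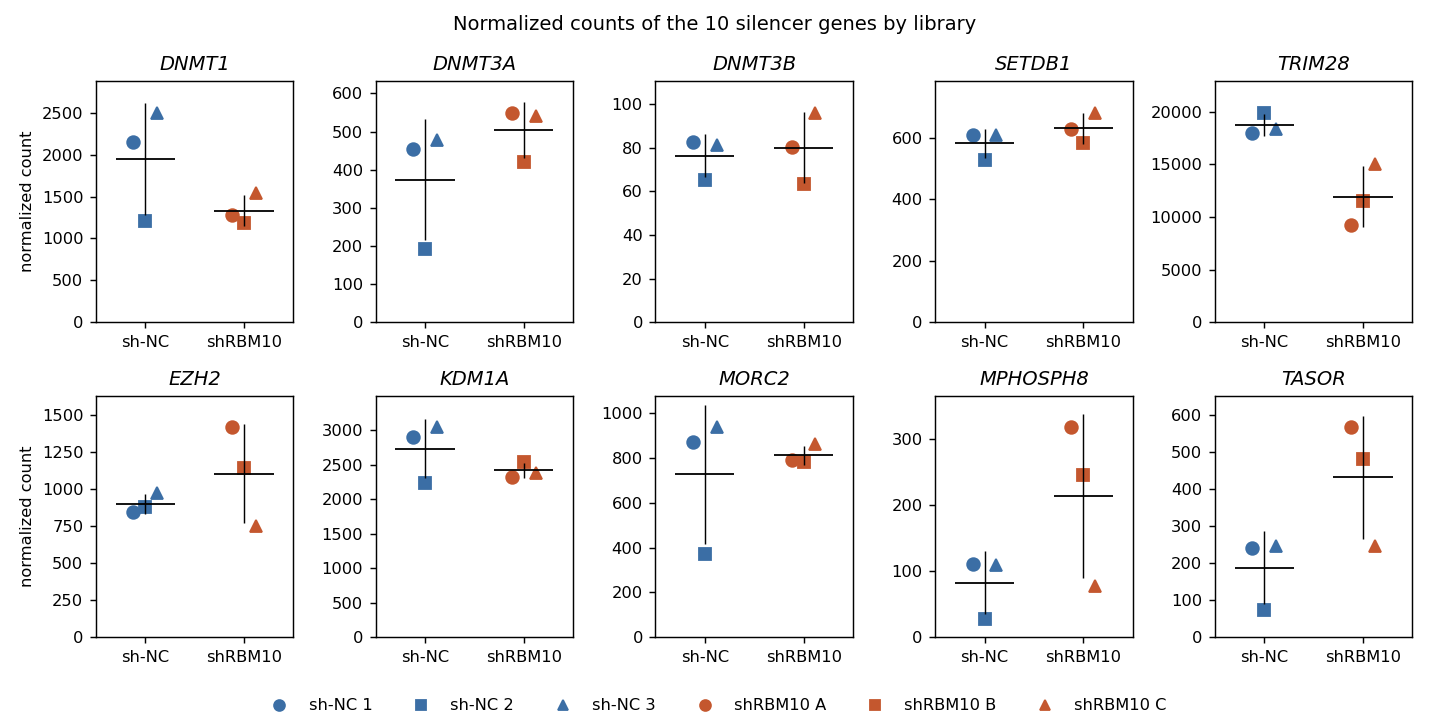
Normalized counts of the 10 silencer genes (vertical axes, linear and starting at 0) in 3 sh-NC and 3 shRBM10 libraries, with a marker shape for each library, a horizontal bar for the group mean and a vertical bar for 1 SD. TRIM28 is the 1 gene with every shRBM10 library below every sh-NC library, and sh-NC 2 (blue square) is far below sh-NC 1 and 3 for TASOR, MPHOSPH8, MORC2, DNMT3A and DNMT1.

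DNA methylation is copied at each replication by DNMT1 and laid down anew by DNMT3A and DNMT3B. DNMT1 was at 2145, 1203 and 2502 normalized counts in sh-NC 1 to 3, and at 1281, 1181 and 1537 in shRBM10 A to C. All 3 shRBM10 libraries therefore lay below sh-NC 1 and 3, but sh-NC 2 lay among them. That place of sh-NC 2 rests on its TMM factor. Raw counts were 887 in sh-NC 2 and 1260, 1244 and 1615 in A to C, so scaled by library total alone it would lie below all 3. The log2 fold change of DNMT1 was -0.55 ± 0.29 (SE), with an adjusted p of 0.254. Without sh-NC 2 it was -0.88 ± 0.18, with an unadjusted p of 0.00129 and an adjusted p of 0.0979 in edgeR. The controls left, sh-NC 1 and 3, differed by a chi-square per degree of freedom of 2.93, against 29.7 or more for every other pair. P-values without sh-NC 2 therefore rest on a narrow control spread that may be technical. With GC and length trends also removed from these 5 libraries, the log2 fold change of DNMT1 was -0.61, at an adjusted p of 0.0173 (edgeR). This was the 1 setting in which a silencer passed the adjusted limit, and even there its change was under 2-fold.

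DNMT3A went the other way from DNMT1. Its normalized counts were 454, 193 and 477 in sh-NC and 550, 420 and 542 in shRBM10. Library B lay below sh-NC 1 and 3, so the groups overlapped, and the log2 fold change of 0.43 ± 0.35 (adjusted p of 0.435) shrank to 0.03 without sh-NC 2. The ratio of DNMT3A to DNMT1 was less affected by that library. On the log2 scale it was -2.24, -2.64 and -2.39 in sh-NC and -1.22, -1.49 and -1.50 in shRBM10, a difference of 1.02 with groups that did not overlap. An exact permutation test gave a two-sided p of 0.1, the smallest that 3 libraries against 3 allow. This ratio and the later ones were picked by hand, and the share of gene pairs without overlap was not counted. A lack of overlap in these ratios therefore carries no weight here. DNMT3B, which is sparse in these cells, was at 82.6, 65.1 and 81.3 against 80.3, 63.6 and 96.1 normalized counts. Its fold change of 0.06 ± 0.30 had a 95% interval from -0.60 to 0.73 on the log2 scale.

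Partners of the methyltransferases lay on both sides of 0. Of 14 listed genes 13 were tested, 0 were called, 3 were higher and 3 lower at an unadjusted p under 0.05 (15.7% and 8.6% of all genes), and the median log2 fold change was 0.41 (0.19 without sh-NC 2 and -0.12 with GC and length trends removed). UHRF1, which brings DNMT1 to hemimethylated DNA, had 1324, 547 and 1489 normalized counts in sh-NC 1 to 3 and 477, 476 and 666 in shRBM10 A to C. As for DNMT1, sh-NC 2 was the control library that overlapped with shRBM10, and the log2 fold change of UHRF1 was -1.05 ± 0.36 (adjusted p of 0.165), or -1.46 without that library. Its raw count in sh-NC 2 was 403, below the 469, 502 and 700 of A to C. CDCA7, the partner of the remodeller HELLS in maintaining methylation, was lower in every shRBM10 library (249, 190 and 277) than in every control (531, 578 and 602). Its log2 fold change was -1.26 ± 0.26 with an adjusted p of 0.118, and -1.7 with an adjusted p of 0.0404 once GC and length trends were removed. DESeq2 gave an adjusted p of 0.00207, so CDCA7 was called in those 2 fits. MBD3, a subunit of the NuRD corepressor, was also lower in all 3 libraries (log2 fold change of -0.79 ± 0.24, adjusted p of 0.155). MBD4, a glycosylase that repairs deaminated methylcytosine, was higher in all 3 (0.99 ± 0.31, adjusted p of 0.156). MBD3 was at -0.77 and MBD4 at 0.49 once GC and length trends were removed. UHRF1 was picked out for its link to DNMT1 after its values were seen.

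TRIM28, the scaffold of KRAB zinc finger repression, was the most abundant silencer per length, at 387 ± 122 TPM in sh-NC (SD, n = 3) and 238 TPM in shRBM10 A. By TPM, control sh-NC 2 (246) was close to A and below sh-NC 1 and 3 (452.5 and 463). TRIM28 had 17967, 19939 and 18414 normalized counts in sh-NC against 9293, 11487 and 15039 in shRBM10. On this scale every shRBM10 library was below every control, and the 3 spread widely, with A lowest and C nearest to sh-NC. Raw counts were 14700 of 18181904 in sh-NC 2 and 15807 of 18526148 in C. Scaled by library total alone, C would lie above sh-NC 2, so the separation rests on the TMM factor of sh-NC 2 (0.738). The log2 fold change was -0.65 ± 0.27 (95% interval -1.26 to -0.04), with an unadjusted p of 0.0378 and an adjusted p of 0.191 in edgeR, and the exact permutation p was 0.1. TRIM28 has the highest GC content of the 10, at 63.7%. With GC and length trends removed its log2 fold change was -0.36 ± 0.11, at an unadjusted p of 0.0137 and an adjusted p of 0.111.

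SETDB1, the enzyme TRIM28 recruits, was nearly level, with 609.97, 528 and 608 normalized counts in the controls and 628, 582 and 682 in shRBM10. Its log2 fold change of 0.12 ± 0.22 had a 95% interval from -0.38 to 0.61. The log2 ratio of SETDB1 to TRIM28 was -4.88, -5.24 and -4.92 in sh-NC and -3.89, -4.30 and -4.46 in shRBM10. These groups did not overlap (difference of 0.80, exact p of 0.1). With both trends removed the fold changes of the pair lay closer, at 0.05 for SETDB1 and -0.36 for TRIM28.

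Around TRIM28 and SETDB1, 19 of 20 listed partners were tested and 0 were called. At an unadjusted p under 0.05, 3 were higher and 2 lower (15.7% and 8.6% of all genes). Their median was 0.37 (0.02 both without sh-NC 2 and with both trends removed). CHAF1B, a subunit of the CAF-1 chaperone that loads histones at replication forks, had 405, 438 and 416 normalized counts in sh-NC 1 to 3 and 211, 218 and 268 in shRBM10 A to C. It was lower in all 3 libraries, by a log2 fold change of -0.85 ± 0.25 (adjusted p of 0.153). TRIM24, a relative of TRIM28, was higher in all 3, at 440, 339 and 208 against 175, 39.3 and 166 normalized counts (1.36 ± 0.51, adjusted p of 0.174). SETDB2, a relative of SETDB1, was at 83.4, 62.6 and 24.7 against 21.6, 16.3 and 28.6, with library C inside the control range (1.34 ± 0.46, adjusted p of 0.165). CHD3, the NuRD remodeller that TRIM28 binds and the most abundant of the list, was at 0.37 ± 0.30. Without sh-NC 2, TRIM24 was at 0.86 and CHD3 at 0.02, and with both trends removed TRIM24 was at 0.62 and SETDB2 at 0.45.

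Among the 10 silencers, the HUSH genes TASOR and MPHOSPH8 had the highest fold changes, and neither reached an unadjusted p under 0.05 without sh-NC 2 or with GC and length trends removed. TASOR, the scaffold of the complex, lies at chr3:56620133-56683237 on the minus strand, and MPHOSPH8, the subunit that reads H3K9 methylation, at chr13:19633681-19673459 on the plus strand (GRCh38). Their promoter windows, 250 bases before to 50 after the start in RefSeq's GRCh38.p14 annotation, are shown 5′ to 3′ on the gene's strand. Every CG dinucleotide, the target of DNA methylation, is in capitals. The IFIT1 window, from an interferon-stimulated gene, is set beside them with the letters of the interferon-stimulated response element, GAAANNGAAA on either strand, in capitals.
MPHOSPH8, chr13:19633409-19633708, plus strand: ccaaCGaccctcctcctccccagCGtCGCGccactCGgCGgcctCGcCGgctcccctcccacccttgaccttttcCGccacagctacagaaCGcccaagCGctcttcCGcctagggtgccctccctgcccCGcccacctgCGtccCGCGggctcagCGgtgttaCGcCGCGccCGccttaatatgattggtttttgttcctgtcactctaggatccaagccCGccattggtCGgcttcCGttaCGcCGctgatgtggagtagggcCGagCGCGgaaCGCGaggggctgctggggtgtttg
TASOR, chr3:56683216-56683515, minus strand: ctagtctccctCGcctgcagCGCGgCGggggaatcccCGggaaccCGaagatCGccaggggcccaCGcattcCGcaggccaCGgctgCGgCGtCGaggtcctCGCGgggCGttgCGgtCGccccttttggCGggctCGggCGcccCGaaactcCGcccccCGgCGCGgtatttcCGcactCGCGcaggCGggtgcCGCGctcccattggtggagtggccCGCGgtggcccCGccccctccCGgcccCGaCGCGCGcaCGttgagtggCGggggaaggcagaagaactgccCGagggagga
IFIT1, chr10:89392373-89392672, plus strand: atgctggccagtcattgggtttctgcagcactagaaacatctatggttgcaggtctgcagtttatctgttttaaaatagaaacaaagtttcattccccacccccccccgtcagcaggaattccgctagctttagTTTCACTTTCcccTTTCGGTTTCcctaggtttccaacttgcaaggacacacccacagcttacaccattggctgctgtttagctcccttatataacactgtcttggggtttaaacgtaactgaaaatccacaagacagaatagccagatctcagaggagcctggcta

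The windows differ in kind. MPHOSPH8 has 31 CG dinucleotides in its 300 bases and TASOR 43, and the median over the first listed window of the 9 silencers with an entry was 31, beside 8.5 for 34 interferon-stimulated genes and 14 for 27305 genes. DNMT3B had 3, in a window (chr20:32779602-32779901) inside the gene (chr20:32762385-32809356, plus strand). Its start at 32762385 had no window, so this count does not describe that promoter, although it enters the median. The DNMT1 window (chr19:10194904-10195203, 30 CG) also lies inside the listed gene span (chr19:10133345-10231286, minus strand). The response element letters stood in 0 of the 9 silencer genes, over every window listed for them, in 24 of 34 interferon-stimulated genes (70.6%) and in 1195 of 27305 genes (4.38%). IFIT1 has 2 of them, both read on the opposite strand. The letters TTTGGCGC, a form of the E2F site, stood in 1 silencer, EZH2, in 3 of 21 replication and mitosis genes (14.3%) and in 0.795% of all genes. A match here is a run of letters and not a measured site.

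MPHOSPH8 had 110.5, 27.1 and 109.9 normalized counts in sh-NC against 318, 247 and 77.1 in shRBM10. Libraries A and B were above every control, and C was below sh-NC 1 and 3. The log2 fold change of 1.36 ± 0.59 (95% interval 0.03 to 2.68) had an unadjusted p of 0.0454 and an adjusted p of 0.199 by edgeR, and it was 0.87 without sh-NC 2. TASOR was likewise highest in A and B and lowest in sh-NC 2. It had 242, 74.6 and 246 normalized counts in the controls and 565, 480 and 245 in shRBM10, so C lay between sh-NC 1 and 3. Its log2 fold change was 1.19 ± 0.47 (95% interval 0.14 to 2.24) with an adjusted p of 0.179, and 0.73 without sh-NC 2. Both genes are low in GC (44.1% and 36.0%), and with GC and length trends removed their log2 fold changes were 0.78 ± 0.48 and 0.43 ± 0.23, at adjusted p of 0.319 and 0.270. The raw counts behind these values are small in sh-NC 2, at 20 for MPHOSPH8 and 55 for TASOR.

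MORC2, the ATPase that HUSH recruits to compact chromatin, did not share this pattern. Its counts were 871, 372 and 937 in sh-NC and 789, 784 and 862 in shRBM10, and apart from sh-NC 2 the libraries covered a narrow range. The log2 fold change was 0.16 ± 0.33, and -0.24 without sh-NC 2. The log2 ratio of TASOR to MPHOSPH8 was 1.13, 1.44 and 1.16 in sh-NC and 0.83, 0.96 and 1.67 in shRBM10, with overlap and a mean difference of -0.09 (exact p of 0.8). Against TRIM28, TASOR was higher in all 3 shRBM10 libraries, by 1.98 on the log2 scale (exact p of 0.1), with C (-5.93) close to sh-NC 1 and 3 (-6.21 and -6.22). MORC2 against TRIM28 did not overlap either (0.95, exact p of 0.1), although the groups overlapped for MORC2 alone and not for TRIM28 alone. MPHOSPH8 against TRIM28 did overlap (2.07, exact p of 0.3), with C (-7.60) below sh-NC 1 and 3 (-7.34 and -7.38). With both trends removed, the fold changes of TASOR and TRIM28 lay closer, at 0.43 and -0.36.

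Of 8 other genes linked to HUSH, 7 were tested and 0 called. At an unadjusted p under 0.05, 3 were higher and 1 lower (15.7% and 8.6% of all genes). The median was 0.93 (0.39 without sh-NC 2 and 0.34 with both trends removed). PPHLN1, which encodes the HUSH subunit periphilin, had 235, 224 and 232 normalized counts in sh-NC 1 to 3 and 701, 559 and 254 in shRBM10 A to C. It is the HUSH subunit in which sh-NC 2 did not stand apart, and its groups did not overlap, although C exceeded sh-NC 1 by little. Its log2 fold change was 1.13 ± 0.36, with an adjusted p of 0.156, and 0.44 with both trends removed. MORC3, another ATPase of the MORC family, was higher in all 3 libraries (1.37 ± 0.41, adjusted p of 0.153). ZNF638, which brings HUSH to unintegrated viral DNA, was at 1.16 ± 0.49 (adjusted p of 0.194), or 0.68 without sh-NC 2, with C between sh-NC 1 and 3. SAFB, an RNA-binding factor and the most abundant of the list, was at -0.03 ± 0.30, or -0.38 without sh-NC 2. MORC3 was at 0.64, ZNF638 at 0.34 and SAFB at 0.18 once both trends were removed.

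EZH2, the enzyme of Polycomb complex 2 that methylates H3K27, had 843, 876 and 972 normalized counts in sh-NC against 1416, 1140 and 754 in shRBM10. Libraries A and B were above all controls and C was below them. The log2 fold change of 0.30 ± 0.27 (adjusted p of 0.473) changed sign to -0.18 with the GC trend removed and to -0.05 with GC and length trends removed. Of its 11 partners, 10 were tested and 0 called. PHF19, which guides the complex to chromatin, was lower in all 3 libraries (634, 727 and 900 against 1437, 1769 and 1576), by -1.08 ± 0.23 at an adjusted p of 0.128. MTF2, a paralogue in the same role, was higher in all 3 (268, 156 and 98.0 against 83.5, 61.0 and 79.6), by 1.21 ± 0.39 at an adjusted p of 0.156. SUZ12, a core subunit, was at 0.84 ± 0.38 (0.50 without sh-NC 2) with C below sh-NC 1 and 3, and the abundant histone-binding RBBP7 was at 0.44 ± 0.27. PHF19 was at -0.95, MTF2 at 0.44, SUZ12 at 0.08 and RBBP7 at 0.17 once GC and length trends were removed.

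KDM1A, the H3K4 demethylase of the CoREST complex, had 2909, 2242 and 3042 normalized counts in the controls and 2328, 2538 and 2385 in shRBM10. Its shRBM10 libraries were closely grouped below sh-NC 1 and 3 and above sh-NC 2. The log2 fold change was -0.18 ± 0.22 (adjusted p of 0.609), and -0.38 ± 0.15 without sh-NC 2 (adjusted p of 0.185). All 11 partners were tested and 0 called, with a median of 0.16, which was -0.09 without sh-NC 2, -0.04 with the GC trend removed and 0.01 with both trends removed. RCOR2, a CoREST scaffold, was low and lower in all 3 libraries (-0.80 ± 0.31, adjusted p of 0.178). The deacetylase HDAC2 was higher in all 3, though by little in C (1801, 1670 and 914 against 878, 865 and 875 normalized counts; 0.74 ± 0.28, adjusted p of 0.173), and -0.36 with both trends removed. ZMYM2, a zinc finger subunit, was at 1.17 ± 0.45 (0.77 without sh-NC 2) with C inside the control range, and the abundant deacetylase HDAC1 at 0.02 ± 0.24. RCOR2 was at -0.48, ZMYM2 at 0.26 and HDAC1 at 0.11 once both trends were removed.

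**Figure D2:**
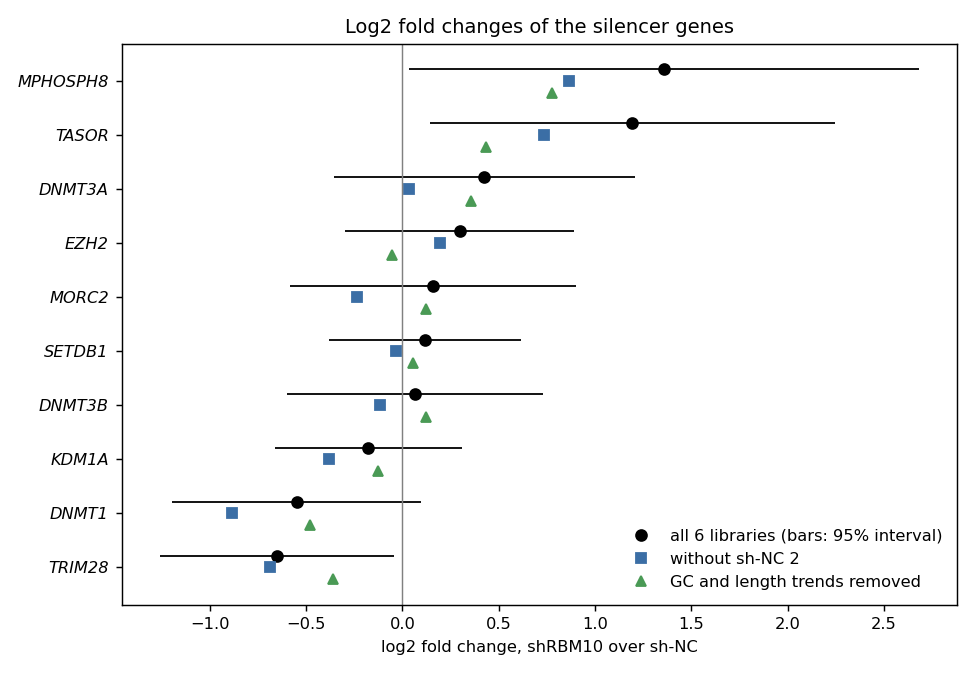
Log2 fold changes of shRBM10 over sh-NC (horizontal axis) for the 10 silencer genes, with all 6 libraries (black circles, bars for the 95% interval), without sh-NC 2 (blue squares) and with GC and length trends removed (green triangles). MPHOSPH8 and TASOR stay above 0 and DNMT1, TRIM28 and KDM1A below 0 in all 3, while DNMT3B, SETDB1 and MORC2 change sign without sh-NC 2 and EZH2 with the trends removed.

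Without sh-NC 2 the silencers at an unadjusted p under 0.05 were DNMT1, TRIM28 and KDM1A, all 3 lower, and 0 were higher, beside 12.7% of all genes lower and 11.6% higher in that fit. The median of the 10 was then -0.07, with 0.01 over all genes. With GC and length trends removed from all 6 libraries, DNMT1 and TRIM28 were lower and DNMT3A higher at that level (15.3% of all genes lower and 11.4% higher), and the median was 0.09. TRIM28 was therefore lower at this level in all 3 fits, though not with the GC trend alone removed (log2 fold change of -0.35, unadjusted p of 0.0746, edgeR). Removing these trends was chosen after the data were seen.

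GC content followed the fold changes of the 10 genes. Over these 10 genes, which share the same 6 libraries, Pearson's r between GC content and log2 fold change was -0.85 and Spearman's rho -0.77, and without sh-NC 2 they were -0.84 and -0.79. TASOR and MPHOSPH8, at the AT-rich end, had the highest fold changes, and TRIM28 and DNMT1, at the GC-rich end, the lowest. How much of either came from the base composition of the libraries and how much from the cells was not tested. Removing the trends left the same 2 genes highest and the same 2 lowest, at smaller sizes.

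**Figure D3:**
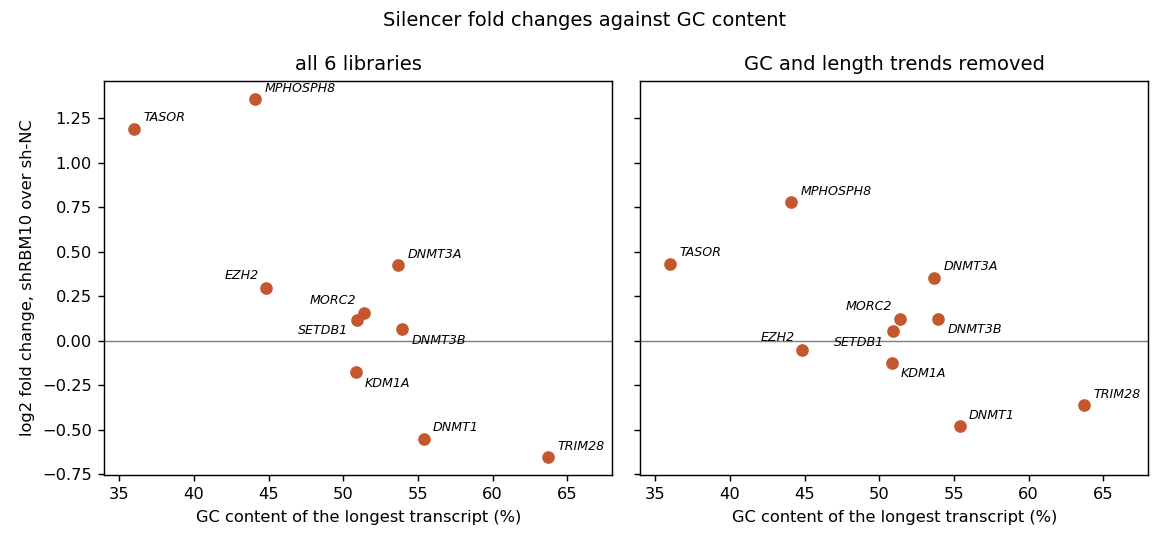
Log2 fold change of each silencer (vertical axis) against the GC content of its longest transcript in percent (horizontal axis), with all 6 libraries on the left and with GC and length trends removed on the right. TASOR (36.0% GC) moves from 1.19 to 0.43 and TRIM28 (63.7% GC) moves from -0.65 to -0.36, so the spread of the 10 genes narrows.

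Complex by complex, partners lay both above and below 0. Over all 60 partners tested of 64 listed, 0 were called in edgeR with all 6 libraries, and 12 were higher and 8 lower at an unadjusted p under 0.05 (15.7% and 8.6% of all genes). In each direction 7 did not overlap, where 13.8% of all genes did not overlap upward and 16.2% downward. DESeq2 called 3, CDCA7 and PHF19 lower and MORC3 higher (adjusted p of 0.00207, 0.00944 and 0.0409), and edgeR with GC and length trends removed called 2, CDCA7 and CHAF1B, both lower (adjusted p of 0.0404 and 0.0448). Their median log2 fold change was 0.35, but 0.12 without sh-NC 2 and 0.05 with GC and length trends removed. The 8 lower at that level were CDCA7, UHRF1, MBD3, CHAF1B, SUV39H1, NXF1, PHF19 and RCOR2.

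**Figure D4:**
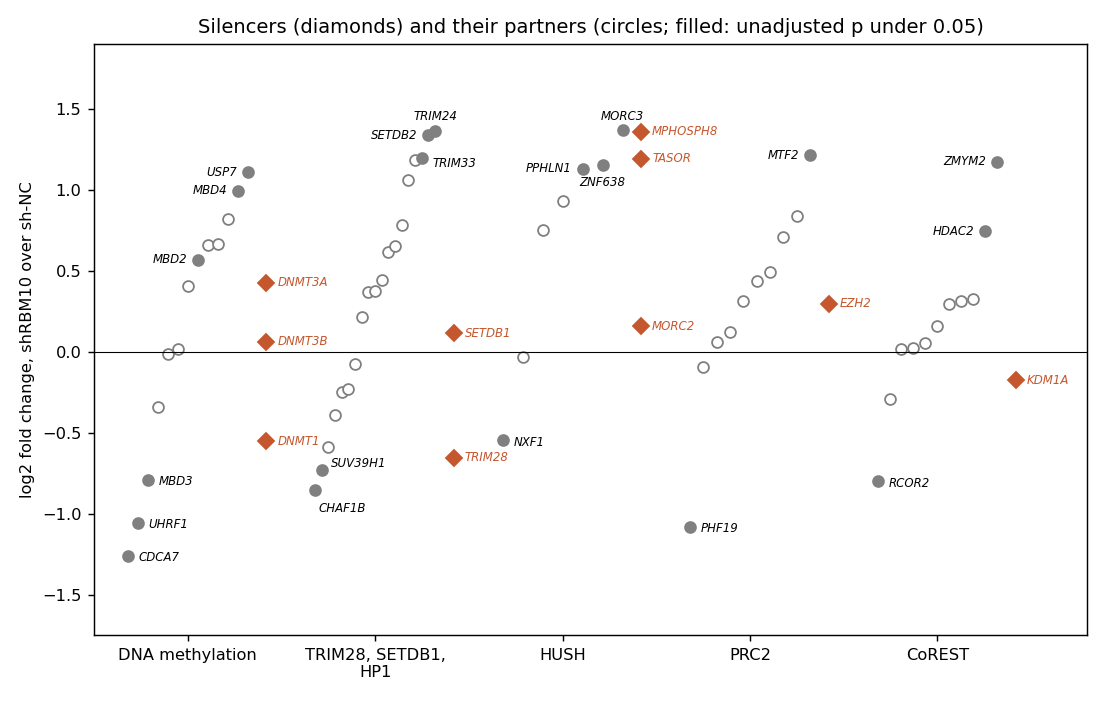
Log2 fold changes of shRBM10 over sh-NC (vertical axis) for 60 partner genes grouped by complex (circles, filled where the unadjusted p was under 0.05) and for the 10 silencers (diamonds). Every complex has partners on both sides of 0, with CDCA7 (-1.26) and PHF19 (-1.08) among the lowest and MORC3 and TRIM24 (1.37 and 1.36) the highest.

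The enzymes that take repressive marks away were listed too. Of 13 listed demethylases and TET dioxygenases, 12 were tested and 0 called. At an unadjusted p under 0.05, 2 were higher and 0 lower (15.7% and 8.6% of all genes). The median was 0.45 (0.01 without sh-NC 2). KDM3A, an H3K9 demethylase, had 107, 85.4 and 154 normalized counts in sh-NC 1 to 3 and 558, 385 and 137 in shRBM10 A to C, with C inside the control range. Its log2 fold change was 1.64 ± 0.48, with an adjusted p of 0.153 in edgeR and 0.0205 in DESeq2, and 1.05 with both trends removed. KDM6A, an H3K27 demethylase, was at 1.23 ± 0.49 and TET2, which oxidises methylcytosine, at 1.25 ± 0.56, each with C inside the control range. KDM3B was the most abundant, at 0.43 ± 0.30. Without sh-NC 2 these 3 were at 0.78, 0.73 and 0.06, and with both trends removed from all 6 libraries at 0.56, 0.49 and 0.29.

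Interferon-stimulated genes are the other side of the question. All 42 listed were tested. At an unadjusted p under 0.05, 33 were higher and 0 lower (15.7% and 8.6% of all genes). In all 3 shRBM10 libraries 31 were above every control (13.8% of all genes). The median log2 fold change was 1.38 (1.25 without sh-NC 2 and 1.04 with GC and length trends removed). By the adjusted limit 0 were called in edgeR with all 6 libraries, 14 in edgeR with GC and length trends removed (1.31% of all genes) and 23 in DESeq2 (4.64% of all genes). The list was drawn up with earlier results of these data known, so its direction is not independent evidence. IFI44 had 168, 152 and 163 normalized counts in sh-NC against 742, 735 and 489 in shRBM10 (2.02 ± 0.27, adjusted p of 0.0861). OAS2, a synthetase that activates RNase L, had 966, 936 and 934 against 2481, 2526 and 2530 (1.41 ± 0.20, adjusted p of 0.0861). IFIT1, which binds foreign RNA caps, had 1002, 1842 and 982 against 6518, 6513 and 3729 (2.13 ± 0.34, adjusted p of 0.0894). BST2, the most abundant of the list on average, was at 0.23 ± 0.30, but at 0.54 without sh-NC 2, where it had 6429 normalized counts against 3315 and 3360 in the other controls, and at 0.72 with both trends removed (adjusted p of 0.0285).

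Sensors of double-stranded RNA were highest in library A and nearest to the controls in C. Of 10 listed genes 8 were tested, with 5 higher and 0 lower at an unadjusted p under 0.05 (15.7% and 8.6% of all genes). Their median of 1.13 was 0.82 without sh-NC 2, 0.57 with the GC trend removed and 0.48 with GC and length trends removed. DDX58, the gene of RIG-I, had 191, 84.1 and 220 normalized counts in the controls and 1386, 881 and 382 in shRBM10 (2.41 ± 0.50, adjusted p of 0.120). IFIH1, the gene of MDA5, had 158, 40.7 and 125 against 702, 599.8 and 304 (2.30 ± 0.50, adjusted p of 0.128). TLR3 was higher in all 3 libraries too (1.67 ± 0.41, adjusted p of 0.142). The adaptor MAVS was at -0.29 ± 0.23.

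The silencers and the interferon list were also set side by side by library. With the sh-NC mean of each gene as 0, the median log2 level of the 42 interferon genes stood at 0.00, 0.14 and -0.11 in the controls and at 1.44, 1.52 and 1.00 in A to C. For the 10 silencers it was 0.16, -0.45 and 0.30 in sh-NC and 0.17, 0.11 and 0.19 in shRBM10, so the shRBM10 libraries lay inside a control range that sh-NC 2 widens, B only through that library. Centred on the mean of the 6 libraries instead, the silencer medians were 0.11 and 0.13 in sh-NC 1 and 3 and 0.076, 0.00085 and -0.0052 in A to C, all below those 2 controls, with sh-NC 2 lowest at -0.31. In library C, relative to sh-NC 1 and 3, DNMT1 was at -0.59, TRIM28 at -0.27, MPHOSPH8 at -0.51 and TASOR at 0.01. In library A, where TRIM28 was at -0.97 and DNMT1 at -0.85, TASOR was at 1.21 and MPHOSPH8 at 1.53. The library with the lowest silencer median, sh-NC 2, had an interferon median of 0.14, close to the other controls. It is also the library in which long genes stood low. The silencers had a median length of 4386.5 bases and the interferon genes 3209.5. Over the 10 silencers, Pearson's r between log2 length and the sh-NC 2 level relative to sh-NC 1 and 3 was -0.66. The part of length in this contrast was not tested.

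**Figure D5:**
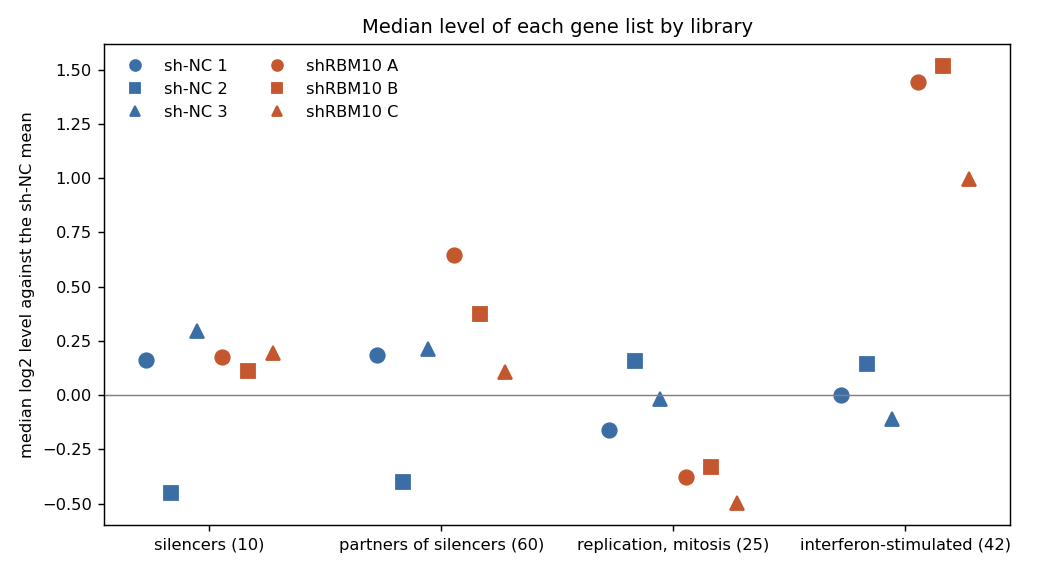
Median log2 level relative to the sh-NC mean (vertical axis) of the 10 silencers, their 60 partners, 25 replication and mitosis genes and 42 interferon-stimulated genes in each of the 6 libraries (marker shape and colour). The 3 shRBM10 libraries lie at 1.00 to 1.52 for interferon genes and at 0.11 to 0.19 for silencers, where sh-NC runs from -0.45 in sh-NC 2 to 0.30.

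DNMT1, UHRF1 and CHAF1B work at the replication fork, so replication genes were read beside them. Of 25 replication and mitosis genes, all tested, 0 were called, 10 were lower and 2 higher at an unadjusted p under 0.05 (8.6% and 15.7% of all genes), and 13 were below every control in all 3 shRBM10 libraries (16.2% of all genes). Their median log2 fold change was -0.46, and -0.56 with both trends removed, with 17 lower at that level (15.3% of all genes). MCM5, a subunit of the replicative helicase, had 1883, 2151 and 2054 normalized counts in sh-NC 1 to 3 and 600, 733 and 1124 in shRBM10 A to C (-1.31 ± 0.27, adjusted p of 0.120). CDC45 was at -1.0 ± 0.24, the S phase regulator E2F1 at -1.07 ± 0.26 and the abundant MCM7 at -0.83 ± 0.26. Unlike these, DNMT1 and UHRF1 overlapped with shRBM10 through sh-NC 2 in normalized counts. The part of these genes' levels in the DNMT1 values was not tested.

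Genes that are themselves kept off by these enzymes, or derive from retroelements, gave few values. Of 33 retroelement-derived genes 20 are in the table and 10 passed the filter. At an unadjusted p under 0.05, 0 were higher and 0 lower (15.7% and 8.6% of all genes). PEG10, the most abundant, had 1878, 357 and 2042 normalized counts in the controls and 1688, 1528 and 1028 in A to C. Its log2 fold change of -0.01 ± 0.52 rested on sh-NC 2: without it the value was -0.56 (unadjusted p of 0.0353), and with both trends also removed -0.85 (adjusted p of 0.00796, edgeR). Both p-values rest on the narrow spread between sh-NC 1 and 3. RTL8A was at -0.35 ± 0.24, RTL8B at 0.39 ± 0.27 and RTL8C at 0.31 ± 0.24. With GC and length trends removed, 2 genes of the list were higher at an unadjusted p under 0.05, RTL8C (0.71, adjusted p of 0.0998) and LDOC1 (unadjusted p of 0.0102). In that fit 0 of the list were lower, beside 11.4% of all genes higher and 15.3% lower. LDOC1 was named after its values were seen. Of 37 germline genes whose promoters are methylated in most body cells 4 passed, all of the MAGEA family, whose near-identical copies may share reads. MAGEA1, MAGEA6 and MAGEA12 were lower in all 3 shRBM10 libraries, by -0.33, -0.45 and -0.44 on the log2 scale (adjusted p of 0.418, 0.238 and 0.261), and MAGEA3 was at -0.28. Over all genes, 16.2% did not overlap downward. Once both trends were removed, MAGEA1, MAGEA6 and MAGEA12 were at -0.20, -0.21 and -0.24. MAGEA1 had 111 raw counts in sh-NC 2 and 112, 129 and 138 in A to C, so its separation rests on the TMM factor of sh-NC 2. Genes under the filter were not tested.

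Per length, the silencers covered a wide range of levels, for which TPM of the 3 sh-NC libraries and shRBM10 A could be used. Below TRIM28 came KDM1A at 62.1 ± 28.3 TPM in sh-NC (SD, n = 3) and 61.3 in A. DNMT1 (26.1 ± 15.1 and 19.3), EZH2 (23.7 ± 8.8 and 45.0), SETDB1 (12.2 ± 2.9 and 16.1) and MORC2 (11.8 ± 7.5 and 13.5) followed, and DNMT3A was at 6.97 ± 4.15 and 9.28. TASOR (2.12 ± 1.53 and 6.77), MPHOSPH8 (1.45 ± 1.05 and 5.96) and DNMT3B (1.21 ± 0.53 and 1.5) were lowest. Neighbours in this order below TRIM28 had overlapping SDs in sh-NC. On this scale the HUSH subunits that stood higher in A and B are among the rarest silencer messages and TRIM28 the most abundant.

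Because RBM10 acts on splicing, the share of each RefSeq transcript in its gene was tested as well. Of 9 silencers with at least 2 testable transcripts, 0 were called for shifted usage at an adjusted p under 0.05 (edgeR, Simes), beside 0.0958% of 8348 genes, and 0 had an unadjusted p under 0.05, beside 2.78%. The smallest unadjusted p, 0.0855, was that of DNMT3A. It came from XM_011532667 (edgeR p of 0.0078 for this transcript), listed at 0 in all 3 sh-NC libraries and at 27, 100 and 15 counts in shRBM10. The DNMT3A transcript NM_022552 took 19.8%, 13.5% and 22.3% of the estimated counts in sh-NC against 41.4%, 37.5% and 31.5% in shRBM10, without overlap. Its own usage p was 0.394 in edgeR. For DNMT1, NM_001318730 took 11.6%, 10.5% and 14.4% in sh-NC and 19.8%, 17.6% and 20.4% in shRBM10, again without overlap (exact p of 0.1). For KDM1A, NM_015013 took 64.3%, 67.0% and 64.5% against 59.6%, 59.6% and 61.0%. Their usage p in edgeR was 0.276 and 0.743. TRIM28's main transcript NM_005762 overlapped between groups, at 72.3%, 85.6% and 79.7% against 73.0%, 68.9% and 68.6%. Transcript counts are the authors' estimates of how shared reads divide, so these shares carry an error beyond the spread shown. These transcripts were picked after their values were seen. The share of all transcripts without overlap was not counted, so a lack of overlap in single transcripts carries no weight here.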

How the data were processed

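RNA of 6 PC9 libraries was sequenced at BGI-Tech. The authors deposited FPKM, TPM, estimated and normalized counts per gene (16306) and per transcript (76563), and no comparison columns were used. Per the submitters' processing notes the build is hg38. The aligner, counter and annotation are not given in the sources used here. Label protocols name more than 1 library kit and assign none to a library. Deposited estimated counts (87.5% whole for genes, 41.1% for transcripts) were rounded. Deposited TPM, which the authors scaled by library and by length, were used for the 4 libraries whose names match a sample title. Further per-sample columns (14 for genes, 18 for transcripts) and 8 columns of means per table were not used.

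Genes were kept by filterByExpr (12620), normalized by TMM and tested with edgeR 4.0.16 (glmQLFit, glmQLFTest; R 4.3.3; limma 3.58.1; DESeq2 1.42.0 as an alternative), with all 6 libraries and no covariate. P-values were adjusted by Benjamini-Hochberg over all genes tested. A call needed a change of over 1 on the log2 scale in either direction and an adjusted p under 0.05. For transcript usage, edgeR's diffSpliceDGE was applied. Log2 levels used a pseudocount of 0.5. GC content and length came from GENCODE 29 (99.6% of genes tested), promoter windows from RefSeq, without an entry for TRIM28. Smooth trends had 5 degrees of freedom. The count step was tested on simulated data. Exact tests were two-sided.

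Members and lists were chosen with earlier results of these data known. Named genes are all 10 members, RBM10 and, from each list, the 3 tested genes with the smallest unadjusted p and the 1 with the highest mean normalized count, plus the 5 genes with a mean of at least 50 whose log2 levels correlate best with the silencer median. A gene that this rule names is not reported here. Libraries sh-NC 1 and 3 differed by a chi-square per degree of freedom of 2.93, more than counting error, and every other pair by 29.7 or more. Library C of shRBM10 was nearer to sh-NC 1 and 3 (29.8 and 30.2) than to A and B (97.9 and 53.9). The 3 per group were kept as replicates.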

Additional observations from a re-analysis of the deposited data

How the results depend on the processing

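No silencer was called in any alternative with an adjusted limit, and 3 passed an unadjusted p under 0.05. Genes called in the whole table, 2 by edgeR, were 574 with DESeq2, 0 with library size only, 31 without the low-count filter, 5 with the GC trend removed, 165 with GC and length trends removed and 3072 at an unadjusted p under 0.05. Leaving out 1 library gave 0 to 23, with 23 without sh-NC 2 and 5 without sh-NC 1, and 285 without sh-NC 2 with both trends removed. The causes were not tested.

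The median log2 fold change of the silencers was -0.07 to 0.25 over fits that left out 1 library. That of all partners was 0.035 with the GC trend removed and -0.059 without sh-NC 2 and with both trends removed. The interferon median was 1.51 with library size only, 0.95 with the GC trend removed, 1.04 with both trends removed, 1.25 to 1.40 leaving out 1 library, and 1.10 without sh-NC 2 and with both trends removed. The replication median was -0.29 with library size only and -0.59 with the GC trend removed. EZH2 turned to -0.18 with the GC trend removed, to -0.055 with both trends removed and to -0.13 when sh-NC 2 was also left out, and MORC2 to -0.10 in that last fit. Leaving out 1 library gave DNMT3B -0.15 to 0.21, SETDB1 -0.031 to 0.17 and MORC2 -0.24 to 0.38. Genes with shifted transcript usage, 8 in the main test, were 0 with limma and 5 to 14 leaving out 1 library (14 without sh-NC 2, 5 without shRBM10 B).

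Columns B and C of shRBM10 match no replicate number, but the column names of both groups end in A, B and C. A replicate block on these letters, chosen after the data were seen, called 861 genes, or 0 with GC and length trends removed, and 0 silencers in both fits. Deviations from the group means correlated at 0.35, -0.050 and -0.31 for the same-letter pairs A, B and C. Deviations within a group sum to 0, so these values are tied to each other. Whether the letters mark shared batches was not tested. In the block with both trends removed the interferon median was 1.03 and EZH2 was at -0.057. Of the other values, for single genes and for the smaller lists, 251 kept their direction and side of the threshold or stayed within the spread, 9 changed sign, 6 came to pass the threshold and 4 moved, all medians of the double-stranded RNA sensors (0.44 to 0.57). Changes in genes with few counts, such as MPHOSPH8, are poorly resolved by 3 libraries a group.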

Other observations

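The median of the centred log2 levels of the 10 silencers over the 6 libraries was compared with that of 11044 other genes. The 5 genes most like it were USP10, GRHL2, VAPB, EFNB2 and CEP250, with Pearson's r from 0.994 to 0.997 over 6 libraries, and 161 genes had r over 0.95. Each of the 5 had a log2 fold change between -0.06 and 0.03. The silencer profile stood at -0.31 in sh-NC 2 and between -0.0052 and 0.13 in the other libraries. A high r here therefore mostly reflects a low level in sh-NC 2.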
